A study of Mus musculus with 26 samples.

Results

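Classical MHC class I molecules and the immunoproteasome were described here through 10 genes, H2-K1, H2-D1, B2m, Tap1, Tap2, Tapbp, Psmb8, Psmb9, Psmb10 and Nlrc5. They were chosen by name for their place in class I antigen presentation, with earlier results of these data known. They are 10 of the 57010 gene identifiers in the count table. All 10 passed the filter on low counts. RNA was sequenced from ear skin of female Balb/cAnNRj mice of wild-type genotype, which were bought at 8 weeks of age. The right ear received vehicle or 1 nmol of MC903 daily for 6 days and a topical treatment daily for 9 days, and a 4 mm punch biopsy was taken on day 9. Calcipotriol, the vitamin D analog named MC903, causes a dermatitis that resembles atopic dermatitis. RGRN-305 is an inhibitor of the chaperone HSP90, and dexamethasone is a glucocorticoid.

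There were 6 vehicle mice, which received vehicle and drug-vehicle, and 8 MC903 mice, which received MC903 and drug-vehicle (ethanol). Another 8 mice received MC903 and 1 mg of RGRN-305 per day (MC903+RGRN-305), and 4 mice received MC903 and 20 nmol of dexamethasone per day (MC903+Dexamethasone). Each mouse gave 1 library, and both drug groups carried MC903 as well, so no group shows a drug on unchallenged skin. Total counts per library ranged from 13695023 to 35130972, and the smallest count of any of the 10 genes in any library was 158. The biopsies hold many cell types, so that fewer cells of a type and less RNA per cell cannot be told apart. Keratinocyte markers were abundant in every library, with a summed level of at least 27400 CPM, which are counts scaled to a common library size.

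Class I molecules show peptides from inside the cell to CD8 T cells and natural killer cells. Their heavy chains (H2-K1 and H2-D1) pair with the light chain beta-2 microglobulin (B2m). Peptides are cut by the proteasome, carried into the endoplasmic reticulum by the transporter of Tap1 and Tap2, and loaded with the help of tapasin (Tapbp). Interferon gamma makes cells exchange the constitutive catalytic subunits of the proteasome for Psmb8, Psmb9 and Psmb10, which form the immunoproteasome. Nlrc5 is a transactivator of class I genes that is itself induced by interferon. In skin, keratinocytes and infiltrating leukocytes both carry class I molecules.

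Of the members, 7 lie on chromosome 17, B2m lies on chromosome 2, and Psmb10 and Nlrc5 lie on chromosome 8. No promoter was read for Tap2 and Nlrc5. The promoters of the other 8, from 250 bases before to 50 bases after the transcript start in RefSeq (GRCm38.p6), were searched on both strands for the letters of known class I elements. H2-K1, H2-D1 and B2m each held TGACG (the core of the X2 or cyclic AMP response element) followed after 20 bases by ATTGG (an inverted CCAAT or Y box). The pair is shown because it is common to the chains of the class I molecule itself. Its coordinates in GRCm39 are chr17:34219333-34219362 on the minus strand for H2-K1, chr17:35481969-35481998 on the plus strand for H2-D1 and chr2:121978090-121978119 on the plus strand for B2m. Capitals mark the matched letters.
H2-K1: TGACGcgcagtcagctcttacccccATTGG
H2-D1: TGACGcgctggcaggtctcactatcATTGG
B2m: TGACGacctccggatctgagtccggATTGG

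This spacing was noticed after the matches had been seen. It occurred in 27 of 27025 genes (0.0999%), and H2-M3, another class I chain, was also among them. By themselves the letters were common, with TGACG in 23% and CCAAT in 41.1% of all genes against 5 and 6 of the 8 members.

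The heavy chain genes also shared a kappa B-like match further upstream, to the letters GGGNNTTCC, which 6.58% of all genes hold. B2m was the only one of the 8 with a match to the interferon-stimulated response element-like letters (GAAA, any 2 bases, GAAA), present in 3.99% of genes, and Psmb8 the only one with the gamma-activated site-like TTCNNNGAA, present in 9.55%. A single TGACG lay between Psmb9 and Tap1, which are transcribed away from each other from RefSeq starts 225 bases apart, and it is printed on the strand of each gene. These sites are chr17:34219414-34219442 for H2-K1, chr17:35481889-35481917 for H2-D1, chr2:121978019-121978048 for B2m, chr17:34417062-34417090 for Psmb8 and chr17:34406432-34406460 for Psmb9 and Tap1.
H2-K1, kappa B-like: gcccagggctGGGGATTCCccatctccac
H2-D1, kappa B-like: gcccagggctGGGGATTCCccatctcctc
B2m, interferon-stimulated response element-like: ataagaacatGAAACTGAAAatgggaaagt
Psmb8, gamma-activated site-like: tcctccgctgTTCCCAGAAgatgcccccc
Tap1, X2-like: cccagagacaggTGACGacagagggtcct
Psmb9, X2-like on the other strand: aggaccctctgtCGTCAcctgtctctggg

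Tapbp held CCAAT only, and Psmb10 held none of the letters searched. A match is a description of the letters and not a site of binding, and the reference is that of C57BL/6, whose class I haplotype (H-2b) differs from that of BALB/c mice (H-2d).

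**Figure D1:**
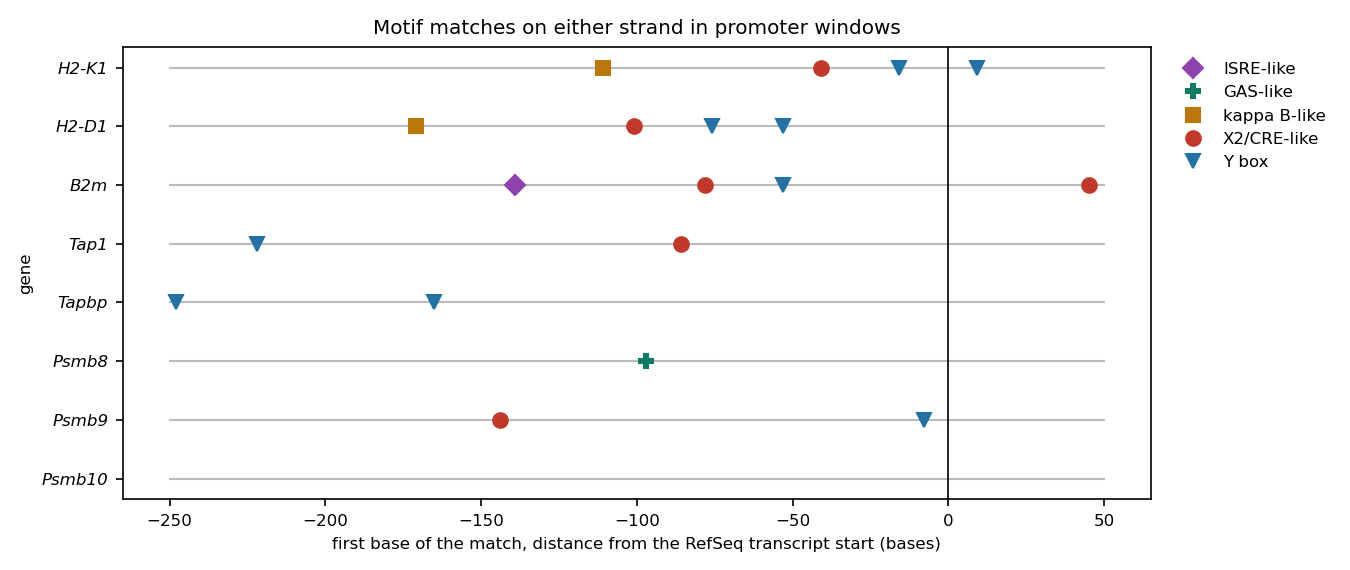
Matches to 5 motifs in the promoter windows of the 8 members read, each row being a gene and the x axis giving the distance of the first matched base from the RefSeq transcript start in bases. H2-K1, H2-D1 and B2m show an X2-like match with a Y box the same distance behind it, and Psmb10 shows none.

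MC903 raised all 10 genes. They rose by 2.11 to 4.20 on the log2 scale (median 2.62, against a median of -0.02 over all genes tested), all past 1.5, and no MC903 mouse overlapped with a vehicle mouse for any of them. An adjusted p below 0.05 with a higher level was reached by 34.5% of the 20167 genes tested in this comparison, a rise past 1.5 on the log2 scale as well by 7.46%, and a level without overlap between the groups by 20.9%. The immunoproteasome subunits rose most, between 11.3-fold and 18.3-fold. RGRN-305 lowered all 10 genes relative to MC903 (median -1.49), with no overlap for any and 5 past -1.5. Of all genes, 19.4% were lower, 7.18% were lower without overlap and 3.12% were lower past -1.5. Dexamethasone also lowered all 10 relative to MC903 (median -2.20), with no overlap for 9 and 9 past -1.5, against 23.3%, 14.0% and 5.89% of all genes. All adjusted p-values are from edgeR's quasi-likelihood test over all genes.

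**Figure D2:**
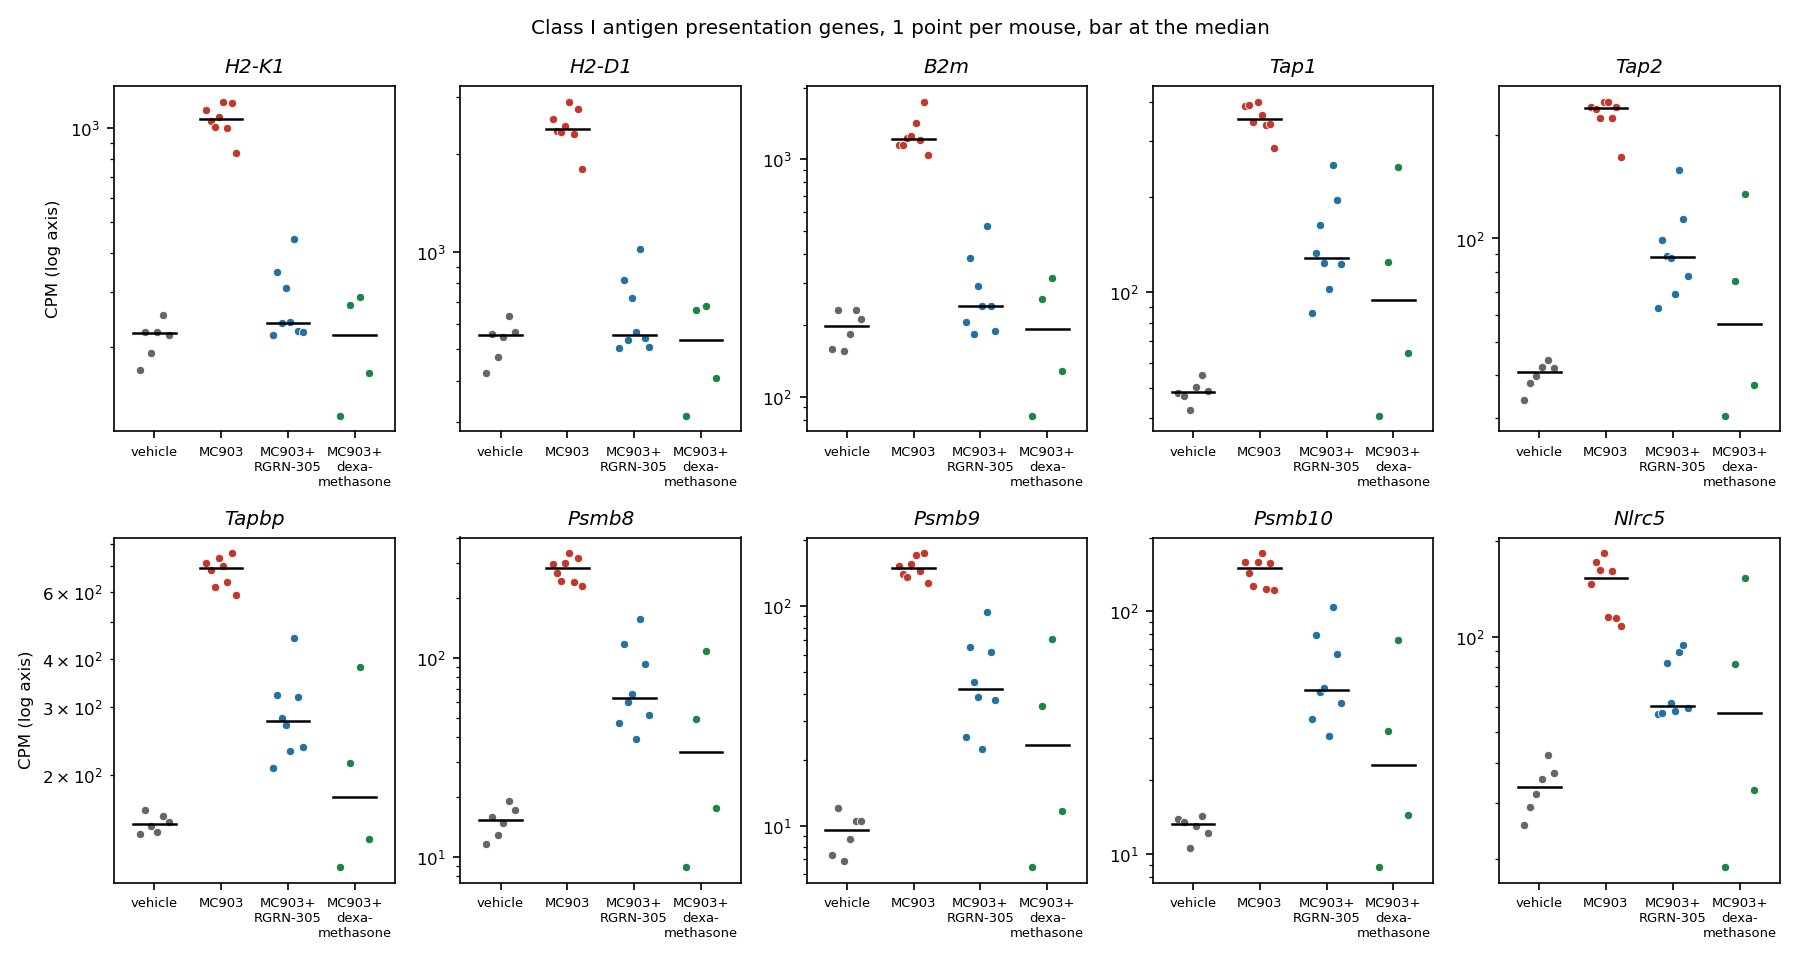
CPM on a log axis for the 10 genes in vehicle, MC903, MC903+RGRN-305 and MC903+Dexamethasone ears, with 1 point per mouse and a bar at the group's median. The 8 MC903 mice lie above all vehicle mice in every panel, and the 4 MC903+Dexamethasone mice are spread most widely.

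The classical heavy chain H2-K1 had a level of 169 to 253 CPM in vehicle mice (median 221) and 835 to 1218 CPM in MC903 mice (median 1070). With RGRN-305 it was 218 to 442 CPM (median 239), and the 4 dexamethasone mice had 120.3, 271, 289 and 165 CPM. Both drug groups thus overlapped with vehicle mice and lay below every MC903 mouse. H2-K1 was 5.03-fold higher with MC903 than with vehicle (log2 fold change 2.33 ± 0.19 SE, adjusted p = 5.2e-11) and fell by 1.93 ± 0.16 with RGRN-305 (adjusted p = 5.3e-09).

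H2-D1, the other classical heavy chain counted here, was the most abundant member by reads, with 424 to 633 CPM in vehicle mice (median 553) and 1792 to 2894 CPM in MC903 mice (median 2392). RGRN-305 mice had 505 to 1017 CPM (median 554), and dexamethasone mice 313, 661, 682 and 409.6 CPM. The median with RGRN-305 differed from that with vehicle by less than the spread of either group. The rise with MC903 was 2.18 ± 0.18 (adjusted p = 6.2e-11), and the difference between RGRN-305 and MC903 was -1.90 ± 0.16 (adjusted p = 3.5e-09).

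For both heavy chains the level is uncertain. Class I genes of related sequence lie close by, reads that fit more than 1 of them were not counted, and reads of the BALB/c alleles were aligned to those of C57BL/6. These conditions were the same in all 4 groups.

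B2m, the light chain shared by all classical class I molecules, ranged from 155 to 231 CPM in vehicle mice (median 198) and from 1044 to 1752 CPM in MC903 mice (median 1218). Its level was 184 to 522 CPM with RGRN-305 (median 242) and 83.2, 257, 317 and 128 CPM in the dexamethasone mice. Divided by summed exon length, B2m had the highest mean of the members in MC903 ears at 1484 CPM per kilobase, with H2-D1 at 941 and H2-K1 at 364. This order depends on that division, as H2-D1 was highest on counts not divided by length, with a mean of 2427 CPM. B2m rose by 2.71 ± 0.28 with MC903 (adjusted p = 9.1e-09) and was lower by 2.18 with RGRN-305 (log2 difference -2.18 ± 0.24, adjusted p = 3.7e-07).

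Tap1 and Tap2 encode the chains of the peptide transporter. Tap1 ranged from 42.6 to 54.8 CPM in vehicle mice (median 48.4), from 286 to 400.0 CPM in MC903 mice (median 354) and from 85.9 to 253 CPM in RGRN-305 mice (median 128). The dexamethasone mice had 40.8, 124, 249 and 64.4 CPM. Every RGRN-305 mouse therefore lay between the vehicle and the MC903 mice, with no overlap on either side. Tap1 rose by 2.88 ± 0.31 with MC903 (adjusted p = 1.8e-08), and the RGRN-305 group was still 3.04-fold above vehicle (adjusted p = 5.6e-05).

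Tap2 had the same order, with 33.7 to 44.3 CPM in vehicle mice (median 40.7), 173 to 251 CPM in MC903 mice (median 239.9) and 62.8 to 158 CPM in RGRN-305 mice (median 88.3). Dexamethasone mice had 30.4, 75.1, 135 and 37.5 CPM, from below the lowest vehicle mouse to well above the highest. Its log2 fold change was 2.53 ± 0.26 with MC903 (adjusted p = 1.0e-08) and -1.28 ± 0.22 for RGRN-305 against MC903 (adjusted p = 8.1e-05).

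Tapbp, the tapasin that bridges the transporter and empty class I molecules, varied least between vehicle mice, from 140.1 to 162 CPM (median 148.5). It was 588 to 758 CPM in MC903 mice (median 694), 207 to 455 CPM with RGRN-305 (median 275), and 115, 214, 381 and 135 CPM in the dexamethasone mice. The RGRN-305 mice again lay between the other groups without overlap. The rise with MC903 was 2.19 ± 0.20 (adjusted p = 1.1e-09) and the fall with RGRN-305 was -1.23 ± 0.18 (adjusted p = 7.2e-06).

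Psmb8 (LMP7), which takes the place of Psmb5, rose most of all members. It ranged from 11.6 to 19.1 CPM in vehicle mice (median 15.4), from 231 to 337 CPM in MC903 mice (median 283) and from 39.4 to 157 CPM in RGRN-305 mice (median 62.9). Dexamethasone mice had 8.92, 49.6, 109 and 17.6 CPM, a range that covers the vehicle mice and most RGRN-305 mice. Psmb8 was 18.3-fold higher with MC903 (log2 fold change 4.20 ± 0.45, adjusted p = 2.2e-08), and RGRN-305 lowered it 3.53-fold (adjusted p = 2.9e-04).

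Psmb9 (LMP2), which takes the place of Psmb6, had 6.90 to 12.1 CPM in vehicle mice (median 9.55), 128 to 175 CPM in MC903 mice (median 149) and 22.3 to 94.6 CPM in RGRN-305 mice (median 41.8). The dexamethasone mice had 6.47, 35.1, 71.0 and 11.6 CPM. It was 16.3-fold higher with MC903 (adjusted p = 2.8e-08) and 3.09-fold lower with RGRN-305 than with MC903 (adjusted p = 6.8e-04). The annotations of Psmb9 and Tap1 overlap at their starts, and the strand setting of the counting was not stated in the sources used here.

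Psmb10 (MECL-1), which takes the place of Psmb7, is encoded apart from the other immunosubunits, on chromosome 8. Vehicle mice had 10.5 to 14.3 CPM (median 13.3), MC903 mice 122 to 173 CPM (median 151), RGRN-305 mice 30.6 to 104 CPM (median 47.2), and dexamethasone mice 8.80, 31.9, 75.6 and 14.4 CPM. As for the linked subunits, RGRN-305 mice lay between vehicle and MC903 mice without overlap. Psmb10 was 11.3-fold higher with MC903 (adjusted p = 2.4e-08), and the log2 difference of RGRN-305 from MC903 was -1.36 ± 0.31 (adjusted p = 1.11e-03).

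Nlrc5, the transactivator, rose least with MC903. It had 25.7 to 42.5 CPM in vehicle mice (median 33.8), 108 to 183 CPM in MC903 mice (median 153), 57.3 to 93.9 CPM in RGRN-305 mice (median 60.7) and 18.9, 81.9, 153 and 33.0 CPM in the dexamethasone mice. Dexamethasone mouse 3 was at the median of the MC903 mice, so Nlrc5 was the exception among the 10 in which dexamethasone and MC903 mice overlapped. The rise with MC903 was 2.11 ± 0.31 (adjusted p = 2.9e-06), the fall with RGRN-305 was -1.05 ± 0.27 (adjusted p = 0.00386), and the difference between dexamethasone and MC903 was -1.02 ± 0.35 (adjusted p = 0.019). The last call was lost without dexamethasone mouse 1 (adjusted p = 0.0646) or mouse 4 (adjusted p = 0.0854), and with only both groups fitted (adjusted p = 0.0965). Without mouse 3 the difference was larger, at -1.71 ± 0.31 (adjusted p = 1.2e-04).

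The members differed in how far they stood above vehicle with RGRN-305. Of the 10, 7 were higher than in vehicle mice, all of them without overlap, where 30.3% of all genes were higher and 13.8% were higher without overlap. A difference past 1.5 was reached by 4 of them and by 3.98% of all genes. These were the transport, immunoproteasome and transactivator genes, with log2 differences from 0.96 (Tapbp) to 2.40 (Psmb9). The 3 that did not pass were the chains of the class I molecule, at 0.40 ± 0.17 for H2-K1 (adjusted p = 0.0514), 0.29 ± 0.17 for H2-D1 (adjusted p = 0.144) and 0.53 ± 0.26 for B2m (adjusted p = 0.077). H2-K1 lay close to the threshold and passed it with DESeq2 (adjusted p = 0.0374), and B2m passed without RGRN-305 mouse 3 (adjusted p = 0.049). RGRN-305 returned 83.0%, 86.9% and 80.3% of the log2 rise of H2-K1, H2-D1 and B2m, and between 38.9% (Psmb10) and 56.2% (Tapbp) of that of the other 7. The difference between the 2 sets of genes was itself not tested.

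With dexamethasone, 6 members were higher than in vehicle mice, where 26.4% of all genes were higher, and none was without overlap, where 19.7% of all genes were. Of the 6, 2 were past 1.5, as were 4.79% of all genes. They were Tap1, Tap2, Psmb8, Psmb9, Psmb10 and Nlrc5, with log2 differences from 0.80 ± 0.29 (Tap2, adjusted p = 0.0211) to 1.74 ± 0.45 (Psmb9, adjusted p = 0.00245). H2-K1, H2-D1 and B2m differed from vehicle by -0.01 ± 0.21, -0.05 ± 0.20 and 0.01 ± 0.30. The comparison rests on 1 mouse, as only Tap1 passed without dexamethasone mouse 3 (log2 difference 0.66, adjusted p = 0.0488), where 23.6% of all genes were higher.

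**Figure D3:**
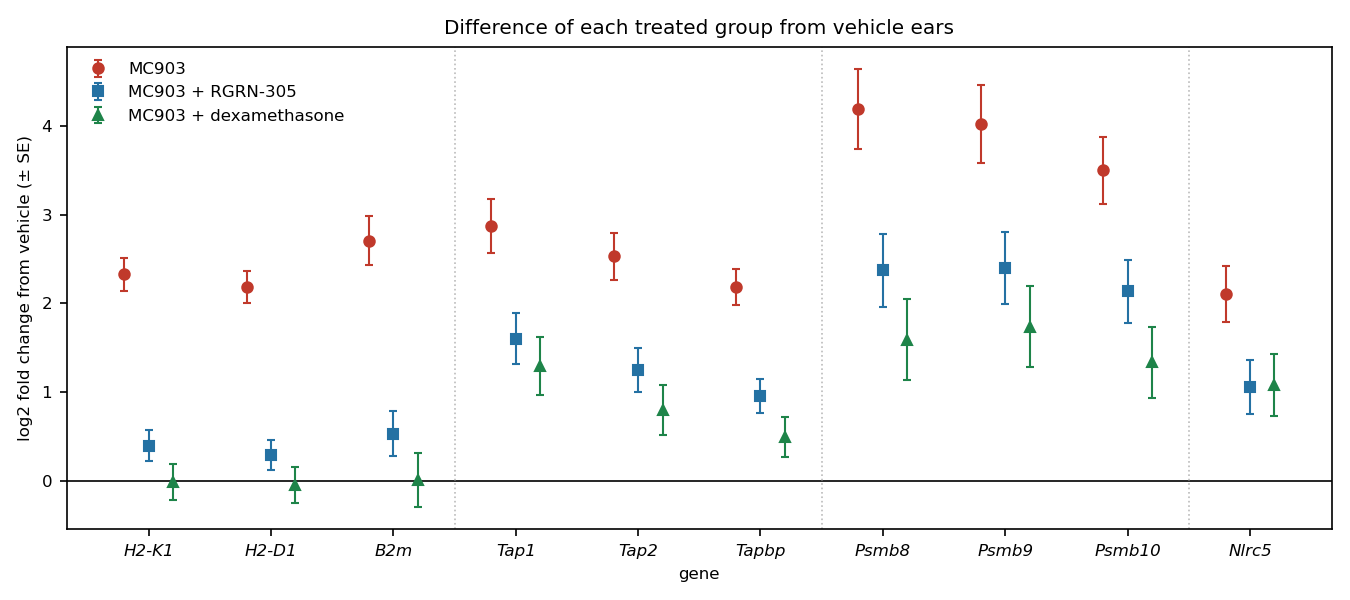
Log2 fold change from vehicle ears (y axis, with error bars of ± 1 SE) for each gene in MC903, MC903+RGRN-305 and MC903+Dexamethasone ears, with dotted lines between the groups of genes by role. H2-K1, H2-D1 and B2m lie between -0.05 and 0.53 with either drug, and the immunoproteasome subunits between 1.34 and 2.40.

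RGRN-305 and dexamethasone were compared directly at the single dose of each. None of the 10 genes passed the test with edgeR (2 at an unadjusted p below 0.05, adjusted p from 0.107 to 0.955), where 35.4% of all genes differed in either direction and 17.6% were higher with RGRN-305. The log2 differences ranged from -0.03 (Nlrc5, 95% interval -0.72 to 0.66) to 0.80 (Psmb10, 0.00 to 1.60), so that differences of up to 1.70 for Psmb8 lay within the interval. Dexamethasone mouse 3 was the highest of its group for all 10 genes and mouse 1 the lowest for all 10. Without mouse 3, 8 of the 10 genes, against 17.5% of all genes, were higher with RGRN-305, led by Psmb8 (1.64, adjusted p = 0.00521), Psmb10 (1.63, adjusted p = 9.4e-04) and Psmb9 (1.47, adjusted p = 0.0102), while H2-D1 (adjusted p = 0.0646) and Nlrc5 (adjusted p = 0.0913) did not pass.

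**Figure D4:**
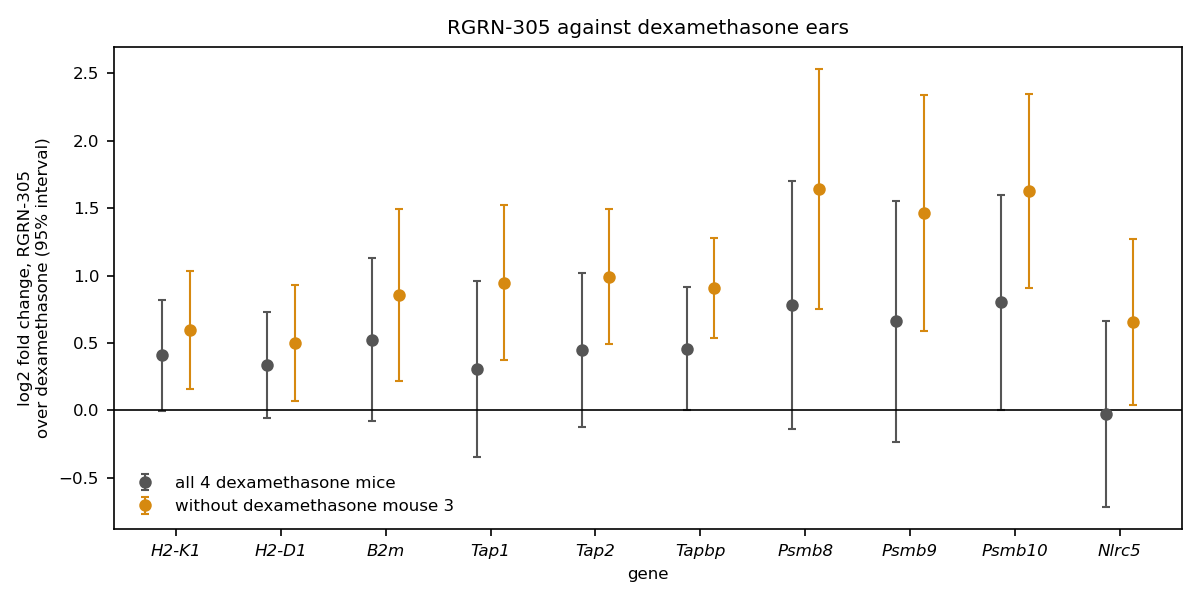
Log2 fold change of MC903+RGRN-305 over MC903+Dexamethasone ears for the 10 genes with 95% intervals, with all 4 dexamethasone mice (grey) and without mouse 3 (orange). The values without mouse 3 are higher for every gene, with Psmb8 at 1.64 in place of 0.78.

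The spread between mice also differed between the groups. The coefficient of variation of CPM over mice had a median over the 10 genes of 13.9% in vehicle mice, 12.6% in MC903 mice, 34.6% in RGRN-305 mice and 73.3% in dexamethasone mice. RGRN-305 mouse 6 was the highest of its group for 9 of the 10 genes, and MC903 mouse 8 the lowest of its group for all 10. In the drug groups, the highest sums of T and natural killer cell markers (12 genes, including Ptprc, Cd3e and Gzmb) and of myeloid markers (12 genes) were in the same mice, RGRN-305 mouse 6 and dexamethasone mouse 3. In MC903 mice both sums were highest in mouse 7, which was the highest for 3 of the 10 genes, against 5 for mouse 5. In vehicle mice the sums were highest in mouse 5 and mouse 6, while mice 5 and 2 were the highest for 7 and 3 of the 10 genes. The T and natural killer cell sum ranged from 21.8 to 38.3 CPM in vehicle mice, from 108 to 185 CPM in MC903 mice, from 37.7 to 75.0 CPM in RGRN-305 mice and from 16.6 to 54.4 CPM in dexamethasone mice. All 12 genes were higher with MC903 and all 12 lower with RGRN-305, against 34.5% and 19.4% of all genes. The myeloid sum was 228 to 310.4, 704 to 1893, 258 to 459 and 206 to 394 CPM in the same order. In MC903 mice S100a8 and S100a9 made up much of it, with means of 254 and 334 CPM, against 0.831 and 1.285 CPM in vehicle mice. Of the 11 myeloid genes tested, 10 rose with MC903 (median 1.07 on the log2 scale), and Cd207 did not pass (-0.18). No marker of these lists was at 0 in every library of a group. Markers of the other cell types of the ear moved as well. The keratinocyte sum (8 genes) had medians of 30550 CPM in vehicle mice, 53090 with MC903, 50560 with RGRN-305 and 61400 with dexamethasone. Krt10 was the largest part of it, with means of 18650 CPM in vehicle mice and 24790 CPM in MC903 mice. With MC903, 7 of the 8 genes rose, against 34.5% of all genes, but unevenly. Krt1 rose by 3.33 and Krt14 by 1.67, Krt5 by 0.28 and Trp63 by 0.26, and Dsc3 did not pass (-0.01). The fibroblast sum (6 genes) had medians of 5269, 2383, 2404 and 1299 CPM in the same order, and that of ear cartilage (4 genes) 141.0, 65.3, 66.5 and 76.3 CPM. Between dexamethasone and MC903 the genes within each of these lists did not move together. Of the keratinocyte genes, Krt1 (0.33) and Krt10 (0.51) were higher, Krt14 (-0.35) and Trp63 (-0.27) were lower, and 4 did not pass. Col1a1, Col1a2, Col3a1 and Lum were lower (log2 differences from -1.59 to -2.31), and Pdgfra (-0.002) and Dcn (0.07) did not pass. Acan, the largest part of the cartilage sum, was higher (0.46). Col2a1 (-1.38) and Matn3 (-2.95) were lower, and Col9a1 (0.10) did not pass. Skeletal muscle (6 genes) went from 2390 CPM to 339, 714 and 1352 CPM, and adipocytes (5 genes) from 95.2 CPM to 19.4, 30.1 and 92.9 CPM, so that both were lowest with MC903, where the 10 genes were highest. Endothelial markers (5 genes) had medians of 114, 92.5, 74.3 and 104 CPM. The part of leukocytes or of any of these cell types in the levels of the 10 genes was not tested.

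Because immunosubunits replace constitutive subunits in the proteasome, their transcripts were also compared as ratios within each library, per kilobase of exon. The ratio of Psmb8 to Psmb5 was 0.161 to 0.411 in vehicle mice (median 0.243), 2.53 to 4.06 in MC903 mice (median 2.90), 0.407 to 1.57 in RGRN-305 mice (median 0.727) and 0.148 to 1.19 in dexamethasone mice (median 0.447). On this scale Psmb8 exceeded Psmb5 in all 8 MC903 mice and in no vehicle mouse. Psmb10 to Psmb7 went from a median of 0.196 in vehicle mice to 1.51 in MC903 mice and 0.563 in RGRN-305 mice. Psmb9 was below Psmb6 in every library on this scale, with medians of 0.0497, 0.526 and 0.172. Which subunit of a pair is higher depends on the division by summed exon length. On counts not divided by length, Psmb9 exceeded Psmb6 in 5 of the 8 MC903 mice (ratios of 0.887 to 1.14), Psmb10 exceeded Psmb7 in none (0.595 to 0.891), and Psmb8 exceeded Psmb5 in all 8 (9.52 to 15.3) and also in 2 of the 6 vehicle mice. Differences of a log2 ratio between groups are the same on both scales.

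The log2 ratios rose with MC903 by 3.55 (Psmb8 to Psmb5), 3.50 (Psmb9 to Psmb6) and 2.96 (Psmb10 to Psmb7), each with an adjusted p of 0.00133 in an exact two-sided permutation test over mice, adjusted over 12 tests. They fell by 1.95, 1.62 and 1.37 with RGRN-305 (adjusted p = 6.22e-04 each, exact permutation) and were lower with dexamethasone (log2 differences -2.87, -2.40 and -2.30, adjusted p = 0.00539 each, exact permutation). In these 9 tests the groups did not overlap, and each p was the smallest its design allows. Between RGRN-305 and dexamethasone the differences were 0.91, 0.78 and 0.93 and did not pass (adjusted p = 0.163, 0.214 and 0.126, exact permutation). Psmb10 to Psmb7 passed without dexamethasone mouse 3, at 1.47 (adjusted p = 0.0291, exact permutation).

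**Figure D5:**
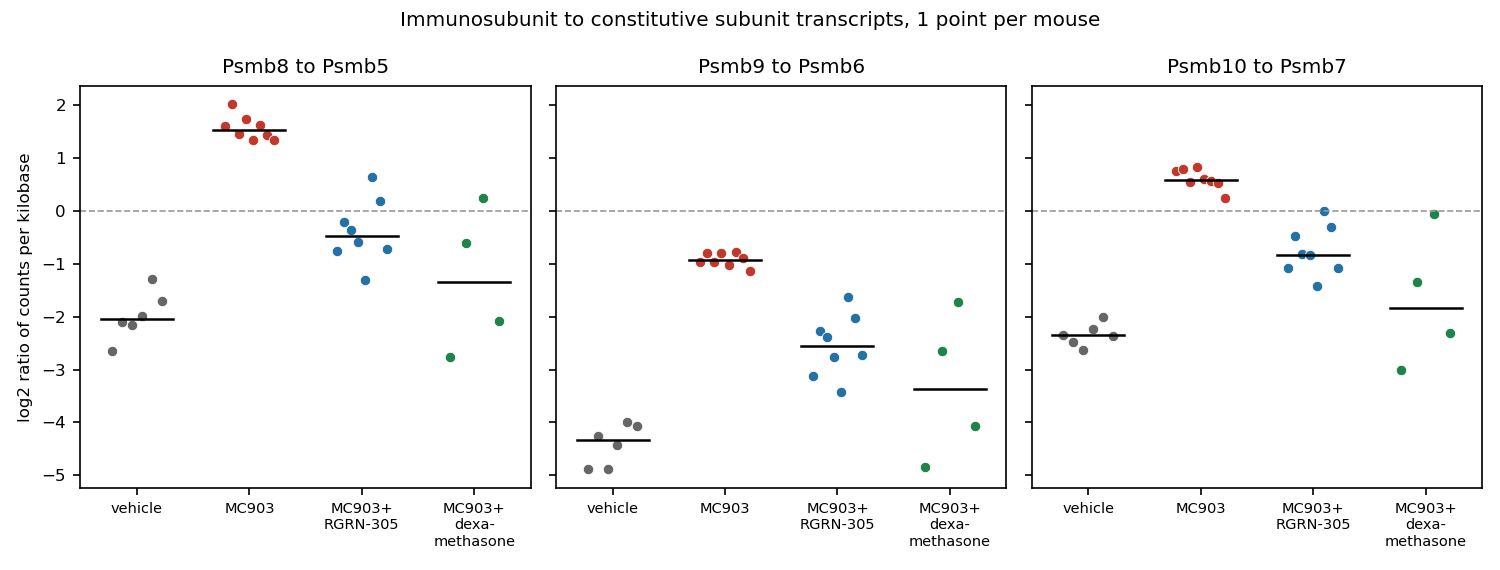
Log2 ratio of immunosubunit to constitutive subunit transcripts in counts per kilobase, with 1 point per mouse, a bar at the median and a dashed line where both are equal. The MC903 mice lie above the line for Psmb8 to Psmb5 and Psmb10 to Psmb7 and below it for Psmb9 to Psmb6, and on counts not divided by length 5 of the 8 lie above it for Psmb9 to Psmb6 and none for Psmb10 to Psmb7.

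The constitutive subunits showed smaller differences. Beside the counts that follow, 34.5% of all genes rose with MC903 and 19.4% fell with RGRN-305. Psmb5, Psmb6 and Psmb7 rose with MC903 by 0.66, 0.54 and 0.54, and none passed the test between RGRN-305 and MC903. Of 16 other genes of the proteasome core and its assembly, 14 rose with MC903 (median 0.68) and 6 fell with RGRN-305, led by the alpha subunit Psma5 (1.11 with MC903) and the assembly factor Pomp (0.97). All 17 genes of the regulatory particle that unfolds substrates rose with MC903 (median 0.49), and 7 fell with RGRN-305. Of 5 activators and regulators, 4 rose, among them the interferon-inducible activator subunits Psme1 (1.35 ± 0.14, adjusted p = 2e-09) and Psme2 (1.26 ± 0.19, adjusted p = 1.7e-06). RGRN-305 lowered both relative to MC903, by -0.61 and -0.67 on the log2 scale.

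The other class I chains were followed as a group of 18 genes, of which 16 were tested. With MC903, 12 rose and 1 fell (median 2.09), and with RGRN-305 relative to MC903, 12 fell and 1 rose (median -1.79). Over all genes, 34.5% rose and 35.7% fell with MC903, and 18.6% rose and 19.4% fell with RGRN-305. The largest rises were those of H2-T24 (3.93 ± 0.37), H2-Q6 (2.98 ± 0.24), H2-T10 (2.92 ± 0.22) and H2-T22 (2.68 ± 0.19), all nonclassical chains. Class I genes are related in sequence, so that counts may have been split between some of them, which could not be measured here. Mr1, which presents vitamin B metabolites to innate-like T cells, went against the group (-1.19 ± 0.14 with MC903 and 0.66 ± 0.13 with RGRN-305).

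H2-M2, a nonclassical chain, and Cd1d1, which presents lipids, were named after their values had been seen. Neither passed the test with MC903 (-0.08 and -0.04) or between RGRN-305 and MC903 (0.21 and -0.03). H2-M2 was 10.1 to 19.2 CPM in vehicle, 10.4 to 16.6 CPM in MC903 and 9.52 to 24.5 CPM in RGRN-305 mice, and 0.532, 1.95, 1.49 and 0.663 CPM in the dexamethasone mice. The difference of RGRN-305 from dexamethasone was 3.71 ± 0.30 for H2-M2 (adjusted p = 5.8e-10) and 0.76 ± 0.16 for Cd1d1 (adjusted p = 5e-04). The Langerhans cell marker Cd207 moved with H2-M2, from 13.2 CPM or more in every mouse of the other groups to 3.40, 5.71, 4.46 and 2.21 CPM in the dexamethasone mice, and its part was not tested.

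Of 9 further genes of peptide trimming and loading, 8 rose with MC903 and 6 fell with RGRN-305, against 34.5% and 19.4% of all genes. Erap1, the aminopeptidase that trims peptides in the endoplasmic reticulum, rose by 1.81 ± 0.17 (adjusted p = 1.2e-09), and the chaperones Calr and Pdia3 by 1.05 and 0.98. Lnpep, an aminopeptidase of endosomes, went the other way (-0.44 ± 0.06, adjusted p = 1.1e-07).

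Among 17 regulators of class I genes, 11 rose and 1 fell with MC903, and 11 fell and 2 rose with RGRN-305. Over all genes, 34.5% rose and 35.7% fell with MC903, and 19.4% fell and 18.6% rose with RGRN-305. The interferon-inducible factor Irf1 rose by 3.27 ± 0.44, Socs1 (an inhibitor of cytokine signalling) by 3.10 ± 0.38, Stat2 by 2.65 ± 0.33 and Irf8 by 2.49 ± 0.26. Rfx5, a subunit of the factor that binds the X box of class I promoters, was the 1 that fell (-0.34 ± 0.10, adjusted p = 0.00512).

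Ifng, the gene of interferon gamma, had no count in any of the 6 vehicle libraries, 1.27 to 2.49 CPM in MC903 mice and 0.0811 to 1.16 CPM in RGRN-305 mice. In the dexamethasone mice it was 0.0409, 0.0432, 1.49 and 0 CPM, with mouse 3 the highest of its group, as for the 10 genes. It was lower with RGRN-305 than with MC903 (-1.66 ± 0.61, adjusted p = 0.0359), on few counts. Of 5 tested genes for interferons and their receptors, 4 rose with MC903 and 4 fell with RGRN-305, among them Ifngr2, a chain of the interferon gamma receptor (1.35 ± 0.08 and -0.42 ± 0.07). The shares of all genes that did so were 34.5% and 19.4%.

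All 7 genes of receptors that bind class I molecules rose with MC903 (median 4.25), and all 7 fell with RGRN-305 (median -2.46) and with dexamethasone (median -2.81). The shares of all genes that did so were 34.5%, 19.4% and 23.3%. These receptors are expressed by T, natural killer and myeloid cells and include the natural killer receptors Klrc1 and Klrc2 and Cd8a, the co-receptor of class I-restricted T cells. The medians of these 3 in MC903 mice were 1.29, 0.677 and 1.82 CPM, and no vehicle mouse exceeded 0.127, 0.0372 and 0.326 CPM, so their fold changes rest on few counts in vehicle.

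Over the 26 libraries, the genes whose log2 CPM was most similar to the mean standardised profile of the 10 members were Ube2l6, Nmi, Sp110, Rnf114, H2-T23, Tmsb10b, Ly6c2, Ifi35, Shisa5 and Irf8, with Pearson's r from 0.980 to 0.993. The libraries share their groups, so these values describe a likeness in pattern and carry no test. Ube2l6, the closest, rose by 3.41 with MC903 and was lower with RGRN-305 (log2 difference -2.03).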

How the data were processed

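Ear RNA of 26 mice was analysed, with 1 library per mouse. The authors prepared strand-specific libraries, sequenced pairs of 150 bases, aligned them to GRCm39 and counted uniquely aligned, unambiguous reads with Subread (v. 2.10.3), and deposited raw counts per gene for 57010 identifiers. The strand setting of the counting was not given in the sources used here. Symbols were taken from GENCODE (release M39), and 700 identifiers with 0.0631% of the counts had none. Groups were taken from the treatment labels.

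Counts were fitted with edgeR (v. 4.0.16) under R (v. 4.3.3). filterByExpr (minimum count 10, minimum total 15) kept 20167 genes, libraries were scaled by TMM, and 1 robust quasi-likelihood model covered all 4 groups. P-values were adjusted by Benjamini-Hochberg over all genes, with a threshold of 0.05, and a log2 fold change limit of 1.5 was counted as well. The SE of a log2 fold change was derived from the test, as its absolute value divided by the square root of the quasi-likelihood F. The 95% intervals use this SE and the t distribution. CPM values use TMM-scaled library sizes. Subunit ratios were log2 of counts plus 0.5 and were compared by exact two-sided permutation of mice, with the p-value taken as 2 times the smaller tail as in scipy (v. 1.17.1). This convention was set after a simpler one, which gave p-values as small or smaller and the same calls in the 12 tests, had been computed. Promoter letters came from RefSeq (GRCm38.p6), and printed sites were matched exactly to GRCm39. The members and lists were chosen with earlier results of these data known. The 10 members were all named, and of other lists up to 5 genes with the largest changes or against the majority, beside those said to be chosen later. A gene that this rule would name among the regulators is not reported here. The most similar genes were the 10 with the highest correlation and a symbol that is not provisional. On simulated counts of the comparison of MC903 with vehicle (19714 genes), 95% of 2-fold and 100% of 4-fold changes were called. For RGRN-305 against dexamethasone (19671 genes) these were 86% and 99%. The simulation gave a gene the same spread between mice in every group and changed only genes with higher counts. Its shares therefore do not carry over to the 10 genes in dexamethasone mice, whose median coefficient of variation was 73.3%, against 12.6% in MC903 mice. Alternatives were DESeq2 (v. 1.42.0), its size factors, no filter, fits of each pair of groups, a block for the mouse number, the 2 libraries of lowest depth left out and each mouse left out. Other experiments of the study were not used here.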

Additional observations from a re-analysis of the deposited data

Results flagged for a closer look

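Each of the 10 genes and 3 subunit ratios was examined in each of the 4 groups for a mouse that stood apart from the others of its group, by the gap to its neighbour relative to the range. Of these 52 groups 2 held such a mouse, and chance alone gives about 1 in 20. Tap2 in MC903 mouse 8 was 173 CPM, below the other 7 MC903 mice, and this mouse was the lowest of its group for all 10 genes. Tapbp in RGRN-305 mouse 6 was 455 CPM, above the other 7 mice, and this mouse was the highest of its group for 9 of the 10 genes. Without either mouse, both genes still passed the test between RGRN-305 and MC903.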

How the results depend on the processing

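The counts of members that passed were within 1.5 times of those reported with DESeq2, its size factors, no filter on low counts, fits of each pair of groups, a block for the mouse number and without the 2 libraries of lowest depth. With a log2 fold change limit of 1.5 as well, 5 members in place of 10 passed for RGRN-305 against MC903, 4 in place of 7 for RGRN-305 against vehicle and 2 in place of 6 for dexamethasone against vehicle. With each mouse left out in turn, the count was 10 for MC903 against vehicle and for RGRN-305 against MC903, 9 to 10 for dexamethasone against MC903, 7 to 9 for RGRN-305 against vehicle, 1 to 7 for dexamethasone against vehicle and 0 to 8 for RGRN-305 against dexamethasone. The 1 and the 8 came without dexamethasone mouse 3. Apart from each mouse left out, 9 calls of single members crossed the threshold in the fits listed above, and no direction that was called turned. H2-K1 was higher with RGRN-305 than with vehicle in 4 of them (adjusted p from 0.027 to 0.0445). For dexamethasone against vehicle, Tap2 (adjusted p = 0.0762) and Nlrc5 (0.0835) were lost in the fit of that pair, and Tapbp was gained with DESeq2 (0.0474).

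Mouse numbers are shared between groups, but nothing ties mice of a number together. Deviations from the group means of same-numbered mice correlated from -0.342 to 0.286 (median -0.059, 8 of 32 pairs over 0.1). With the number as a replicate block, Nlrc5 lost its call for dexamethasone against vehicle (log2 fold change 0.89, adjusted p = 0.0531), and H2-K1 gained one for RGRN-305 against vehicle (0.44, adjusted p = 0.027). The subunit ratios as differences within a number were 3.61, 3.53 and 3.03 for MC903 against vehicle (adjusted p = 0.0625, exact sign-flip test) and -3.01, -2.44 and -2.42 for dexamethasone against MC903 (adjusted p = 0.167), the smallest unadjusted p with 6 and 4 pairs being 0.0312 and 0.125. With each mouse left out, Psmb8 to Psmb5, Psmb9 to Psmb6 and Psmb10 to Psmb7 differed between RGRN-305 and dexamethasone by 0.43 to 1.43, 0.27 to 1.32 and 0.48 to 1.47.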
